A study of Mus musculus with 9 samples.

Results

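The genes described here encode the proteins of the cytosolic ribosome. They were taken by name, as gene symbols of the large subunit (Rpl, Rplp) or the small subunit (Rps, Rpsa) with a number, without pseudogenes and without the Rps6k kinases. The name rule uses no measured value, but it was set with earlier results of these data known. It gave 49 genes of 18193 with a single-gene probe set on the array, 26 of the large and 23 of the small subunit. A probe set is a group of short probes against one transcript, and the brightest single-gene probe set stood for each gene. Of the 49 genes, 46 passed a filter on low values (a log2 value of 5 or more on 3 or more arrays) and were tested among 15235 genes.

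Expression was measured in the mouse pancreatic cancer line 170#3, which has a mixed C57BL6, FVB and 129Sv background. The 3 groups were the line with a stable control transfection, the line stably expressing beta-catenin, and the line stably expressing ICAT. Beta-catenin is the co-activator that carries Wnt signals to TCF/LEF factors, and ICAT is a small protein that keeps beta-catenin from binding TCF. Each group had 3 arrays, labelled as biological replicates, from cells in monolayer culture in DMEM with serum. Whether a group is 1 clone or a pool, and which promoter drove the transgene, was not given by the labels. The p-values therefore cover the spread among 9 arrays and no more.

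A ribosome joins a small subunit, which reads the mRNA, to a large subunit, which forms the peptide bonds. Each subunit holds one copy of most of its proteins, and cells usually make these proteins in balanced amounts. Their mRNAs begin with a C followed by a run of C and T, the 5′ terminal oligopyrimidine (TOP) tract, through which mTOR and LARP1 adjust their translation. This control acts largely on translation, which an array of mRNA levels does not measure. MYC, a known target of Wnt signalling, raises ribosome production in many cells. A few ribosomal proteins have paralogues, such as Rpl22l1 for Rpl22 and Rps27l for Rps27, which can take the same place in the ribosome or have other roles.

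Runs of C and T letters stood at the RefSeq start sites of many of these genes. The windows below, on GRCm38.p6, run 5′ to 3′ on the gene's strand from 20 bases before the annotated start to 10 bases from it. Capitals mark a run of at least 5 C or T letters that lies within 5 bases of the start. Shown first are the genes whose brightest probe sets differed most between groups, then 3 whose brightest probe sets differed from control by 0.16 or less. The second set is not one of unchanged genes. Rps10 in it was called lower with beta-catenin, and a dimmer probe set of it fell further, as given below.
Rps6, chr4:86857358-86857387, minus strand: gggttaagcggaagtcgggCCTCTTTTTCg
Rpl22l1, chr3:28805488-28805517, plus strand: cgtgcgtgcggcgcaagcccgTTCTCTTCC
Rpl12, chr2:32961692-32961721, plus strand: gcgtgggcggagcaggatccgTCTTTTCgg
Rpl14, chr9:120571497-120571526, plus strand: cggcagggcgggCCCTCTCTCTTCTCgctg
Rps27, chr3:90213639-90213668, minus strand: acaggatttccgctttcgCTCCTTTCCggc
Rpl7l1, chr17:46782647-46782676, minus strand: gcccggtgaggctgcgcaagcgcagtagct
Rplp2, chr7:141447631-141447660, plus strand: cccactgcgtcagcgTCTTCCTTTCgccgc
Rps10, chr17:27635235-27635264, minus strand: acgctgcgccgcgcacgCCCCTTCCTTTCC
Rps4x, chrX:102189382-102189411, minus strand: aaagtctgaggctgggcggagcaacccagg

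Both sets shown had windows with the run, and both had a window without it. The window of Rpl7l1, a paralogue of Rpl7, and that of Rps4x held no such run next to the annotated start. RefSeq start sites matched 43 of the 49 genes, with 51 windows. Of these 51 windows, 27 held the run (52.9%), against 31.4% of 32851 windows of all genes. The annotated first base was C in 15 windows (29.4%), against 16.3% of all windows. Annotated starts can lie some bases from the start used in these cells, so a window without the run says only that these letters are not there.

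The shares of short pyrimidine motifs differed between the strands. In the 40 bases around the start, CTTTC stood on the gene's strand in 12 of the 51 windows (23.5%), against 5.5% of all windows. On the opposite strand CTTTC stood in 2 windows (3.9%), against 4.9%. TTTCC was found in 12 windows (23.5%), against 6.2% of all, and on the opposite strand in 1 (2.0%), against 5.7%. CCTTT was found in 9 windows (17.6%), against 4.6%, and on the opposite strand in none (0.0%), against 4.6%. The 3 motifs overlap each other and the run, and several windows can belong to 1 gene, so these shares are one description and not 4 separate ones.

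Ribosomal protein genes held the brightest probe sets on the array. Of the 100 brightest of 45037 probe sets, 28 were single-gene probe sets of these genes. A further 43 list a ribosomal protein gene together with other genes, and are given here by count without naming a gene. The median over the 49 genes' mean log2 levels was 14.01, against 7.82 over all tested genes. By mean log2 level 35 of the 49 genes lay at 13 or more and 26 at 14 or more. Brightness depends on the probes as well as on the transcript, so it does not order the genes by abundance.

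The brightest probe sets lay close to the upper end of the scale. The highest log2 value on an array was between 14.60 and 14.66. Rplp0, the scaffold protein of the ribosome's P stalk, had a mean of 14.51 and was the 9th brightest probe set of all. Rps29 had a mean of 14.49 and Rpl41, one of the smallest known proteins, 14.45. The deposited values carry no saturation flag, so which probes reached the scanner's limit was not tested here. A probe set near this end can show only a limited increase, and small differences of such probe sets are read here as differences of the values, not of the mRNA.

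The cells' labels were checked against marker genes. Of the epithelial markers, Krt18 had a mean log2 level of 7.23 in control cells, 6.79 with beta-catenin and 8.51 with ICAT, Sox9 lay at 9.01 in control cells, and Cdh1 was at 3.54 or less in every group's mean. Of 6 tested epithelial markers 0 were called with beta-catenin by limma, with a median of −0.0017, and 4 rose with ICAT. Krt18 had the widest difference of that list in both lines. Of 7 fibroblast markers all lay at log2 5 or more in every group. Of all tested genes 34.9% were called with beta-catenin and 37.2% with ICAT, and of the 6 epithelial markers 0% and 66.67%. Of the fibroblast markers 57.14% and 85.71% were called. With beta-catenin 3 of these fibroblast markers rose and 1 fell, with a median of 0.39, and with ICAT 6 rose, with a median of 1.45. Their summed level (log2 of the sum of linear values), to which Col1a2 gave most in control cells, was 12.6 to 12.7 in control, 12.2 to 12.4 in beta-catenin and 14.02 to 14.08 in ICAT arrays. Of 5 macrophage and leukocyte markers, 4 lay at log2 5 or more in every group. Of these 4, 1 fell with beta-catenin (25%) and 0 were called with ICAT (0%). The fifth, Ptprc, had group means of 4.26 to 4.38, below the filter. The part of the fibroblast markers in the results below was not tested.

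The values of most ribosomal protein genes, read from their brightest probe sets, were close to control in both lines. Dimmer probe sets of some of these genes differed more, as given further on. A gene is called here when its adjusted p is under 0.05 (limma, Benjamini-Hochberg over all tested genes of a comparison). In beta-catenin cells 5 of the 46 tested genes rose and 3 fell (17.39%), whereas 34.9% of all tested genes were called (19.6% higher, 15.4% lower). In ICAT cells 1 rose and 5 fell (13.04%), whereas 37.2% of all tested genes were called (18.7% higher, 18.5% lower). The median log2 difference of the 46 genes was −0.01 with beta-catenin and −0.02 with ICAT, and over all tested genes it was −0.03 and −0.01. Both lines were compared with the same 3 control arrays, so the values of the lines are not independent. In this fit 0 ribosomal protein genes were called in opposite directions in the 2 lines, and 3 were with the other prior given next.

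The differences were small in size, and in this fit a smaller share was called than of all tested genes. A log2 difference of more than 0.25 in either direction, about 1.19-fold, was found for 4 of the 46 genes in beta-catenin cells (8.70%), against 31.8% of all tested genes. It was found for 6 of the 46 in ICAT cells (13.04%), against 33.8%, and for 6 of the 46 between the lines, against 36.3%. The share was lower among bright genes in general. Of 106 other genes at log2 13 or more it was 20.75% with beta-catenin, 21.7% with ICAT and 29.25% between the lines. Of the 35 ribosomal protein genes at that level it was 2.857%, 0% and 2.857%. The spread between replicates was small too. The median SD of the 46 genes was 0.0219 for control, 0.0196 for beta-catenin and 0.0299 for ICAT arrays (log2 units), and over all tested genes it was 0.0568, 0.0746 and 0.121. The arrays of the 2 groups did not overlap for 29 of the 46 genes in beta-catenin cells (63.0%), against 54.1% of all tested genes. In ICAT cells they did not overlap for 25 genes (54.3%), against 46.2%.

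**Figure D1:**
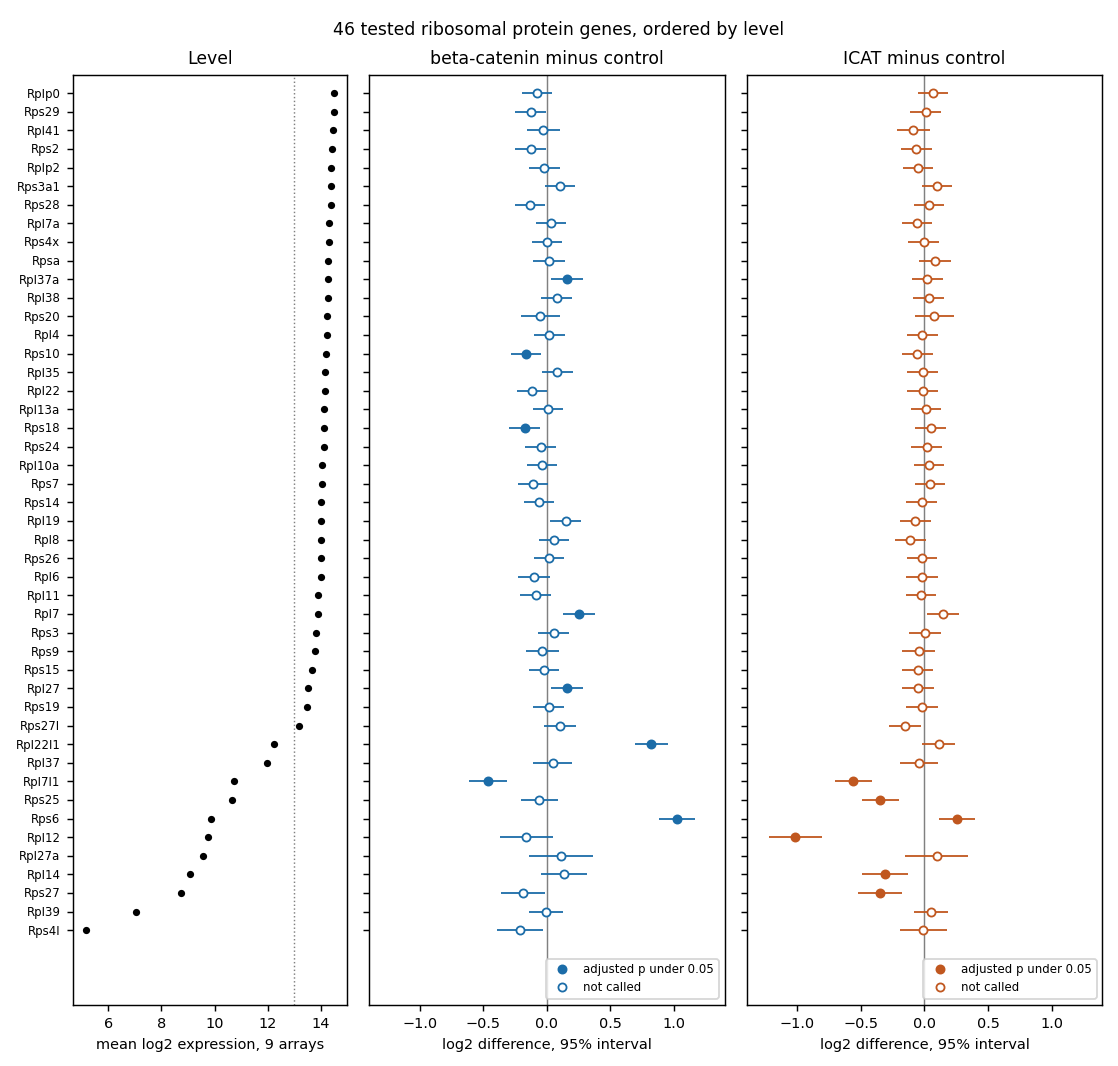
Mean log2 expression over the 9 arrays (left) and the log2 difference from control with its 95% interval in beta-catenin cells (middle) and ICAT cells (right) for the 46 tested ribosomal protein genes, ordered by level. Filled points passed an adjusted p under 0.05, and the dotted line marks log2 13. Genes above that line cluster at 0, and the wide differences (Rps6, Rpl22l1, Rpl7l1, Rpl12) lie below it.

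The limma test adds a prior SD of 0.0969, learned from all genes, to each gene's own spread, and this sets a lower bound on what a tight, bright gene can show. When the prior was instead allowed to follow the level, 21 of the 46 genes were called in beta-catenin cells (10 higher, 11 lower), beside 36.0% of all tested genes. In ICAT cells 15 were called (5 higher, 10 lower), beside 38.4% of all, and 23 between the lines, beside 41.1%. As shares of the 46, the beta-catenin and between-lines counts lay above those of all tested genes, and the ICAT count below. Making this prior robust to outlying genes as well gave shares of all tested genes of 36.1%, 38.5% and 41.0%, and 21, 13 and 22 of the 46. The smallest difference called in this way was 0.08 with beta-catenin and 0.06 with ICAT. Of genes at log2 13 or more, 18 and 9 were called, and none of these differences was larger than 0.25 and 0.15. With this prior 3 genes were called in opposite directions in the 2 lines. Rpl19 and Rps27l rose with beta-catenin (0.15 and 0.10, adjusted p = 4.03e-04 and 0.0312) and fell with ICAT (−0.07 and −0.15, adjusted p = 0.0416 and 0.00280, limma). Rplp0 fell with beta-catenin and rose with ICAT. The choice of prior thus changed how many small differences were called.

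The values of the 35 genes at log2 13 or more lay close together across the groups. For 33 of them the 3 group means lay within 0.25 of each other on the log2 scale, and the median range was 0.10. In each comparison all 35 of the 95% intervals lay within 0.5 of 0, and the median distance from the estimate to either bound was 0.12. In beta-catenin cells 3 rose and 2 fell. In ICAT cells limma with the common prior called 0, with 2 at an unadjusted p under 0.05 and 9 called with the prior that follows the level. For the large subunit 10 of 17 bright genes lay above 0 in beta-catenin cells, with a median log2 difference of 0.02, and for the small subunit 7 of 18, with a median of −0.04. In ICAT cells 6 of 17 and 9 of 18 lay above 0, with medians of −0.02 and −0.0023.

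The P stalk recruits translation factors to the large subunit, and Rplp0 is its base. Rplp0 had log2 values of 14.52, 14.52 and 14.51 in control, 14.45, 14.44 and 14.42 in beta-catenin, and 14.60, 14.57 and 14.58 in ICAT arrays. The beta-catenin arrays were all below and the ICAT arrays all above the controls, by −0.08 and 0.07 in the means. Under the common prior neither was called (adjusted p = 0.300 and 0.383, limma), and with the prior that follows the level both were (adjusted p = 0.0121 and 0.0249, limma). Rplp2, which sits on Rplp0, differed from control by −0.02 and −0.05 (adjusted p = 0.825 and 0.532, limma). Rpl11, part of the 5S particle that restrains the p53 inhibitor Mdm2 when assembly fails, differed by −0.09 and −0.03 (adjusted p = 0.259 and 0.751, limma), and the other prior called the first (adjusted p = 0.0192). The other P stalk and 5S particle genes, Rplp1 and Rpl5, have only several-gene probe sets and were not tested.

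Rpsa, the small subunit protein also known as the laminin receptor, differed from control by 0.02 with beta-catenin and 0.08 with ICAT (adjusted p = 0.851 and 0.317, limma), and the other prior called the second (adjusted p = 0.0375). Rps4x was the most even of the bright genes. Its group means differed by 0.0106 at most, and its SD was 0.0060 over control, 0.0008 over beta-catenin and 0.0167 over ICAT arrays. Among 6 tested genes of the peptide exit tunnel, of 10 listed, limma with the common prior called 0 against control in either line (1 and 0 at an unadjusted p under 0.05), where 34.9% and 37.2% of all tested genes were called. With the prior that follows the level 4 were called with beta-catenin (3 higher, 1 lower) and 1 with ICAT, Rpl19, which was lower. Among 12 tested genes linked to Diamond-Blackfan anaemia, of 20 listed, Rpl27 rose and Rps10 fell with beta-catenin, and Rps27 fell with ICAT. The other prior called 2 higher and 5 lower with beta-catenin, and 1 lower with ICAT. For both lists, the share of all tested genes called with that prior was 36.0% with beta-catenin and 38.4% with ICAT.

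In beta-catenin cells the bright gene with the largest change was Rpl7, an RNA-binding protein of the large subunit. Its log2 values were 13.78, 13.73 and 13.75 in control, 14.002, 14.01 and 14.01 in beta-catenin, and 13.96, 13.85 and 13.89 in ICAT arrays. All beta-catenin and ICAT arrays lay above all controls. Rpl7 rose by 0.25 in beta-catenin cells (SE 0.0578, 1.19-fold, adjusted p = 0.00502, limma). In ICAT cells the difference was 0.15 (adjusted p = 0.0669, limma), which the other prior called (adjusted p = 0.00186). Its 2 other probe sets differed by 0.21 and 0.16 in beta-catenin cells.

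The other bright genes called in beta-catenin cells moved by about 1.1-fold. Rpl27 and Rpl37a, both of the large subunit, rose by 0.16 each (adjusted p = 0.0479 and 0.0448, limma). Rps18 and Rps10, both of the small subunit, fell by 0.17 and 0.16 (adjusted p = 0.0321 and 0.0390, limma). Rps18 had log2 values of 14.15, 14.16 and 14.17 in control, 13.97, 14.01 and 13.99 in beta-catenin, and 14.25, 14.19 and 14.19 in ICAT arrays. For each of these 4 genes the beta-catenin arrays lay outside the range of the controls. Leaving out any 1 array of either group ended all 4 calls, with adjusted p of up to 0.143 for Rpl27, 0.128 for Rpl37a, 0.109 for Rps18 and 0.120 for Rps10.

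The wide changes lay among 14 genes whose probe set was under log2 13. Of these, 9 are also listed on a several-gene probe set of log2 13 or more, and which transcripts the single-gene probe set reads was not analysed here. Of the 11 tested, 2 rose and 1 fell with beta-catenin, and with ICAT 1 rose and 5 fell. These are shares of 27.27% and 54.55%, beside 34.9% and 37.2% of all tested genes, so the beta-catenin share was not above that of genes in general. The group was formed after the values were seen, and its counts are a description.

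Rpl22l1, the paralogue that can replace Rpl22 in the large subunit, was higher in beta-catenin cells. Its log2 values were 11.89, 11.98 and 11.92 in control, 12.81, 12.74 and 12.72 in beta-catenin, and 12.0004, 12.08 and 12.05 in ICAT arrays. The beta-catenin arrays lay well above all others. Rpl22l1 rose by 0.82 (SE 0.0602, 1.77-fold, adjusted p = 1.06e-06, limma), while the difference in ICAT cells was 0.11 (adjusted p = 0.186). Between the 2 lines the beta-catenin level was 1.64-fold that of ICAT (adjusted p = 4.24e-06, limma).

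Rpl22 itself moved less, and its probe sets disagreed. Its brightest probe set had log2 values of 14.17, 14.21 and 14.19 in control, 14.05, 14.08 and 14.10 in beta-catenin, and 14.17, 14.17 and 14.19 in ICAT arrays. The beta-catenin arrays lay below all others, by −0.11 in the mean (adjusted p = 0.134, limma), which the other prior called (adjusted p = 0.00228). A second probe set, at a mean of 13.49, differed by −0.19. The third, at 9.55, went the other way: it rose by 0.65 in beta-catenin cells (adjusted p = 3.59e-04) and by 1.09 in ICAT cells (adjusted p = 9.31e-06, limma over all probe sets). Which Rpl22 transcripts each probe set reads was not tested.

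Rps6, the small subunit protein that S6 kinases phosphorylate downstream of mTOR, had the largest increase of these genes. Its log2 values were 9.42, 9.46 and 9.46 in control, 10.46, 10.46 and 10.51 in beta-catenin, and 9.81, 9.62 and 9.68 in ICAT arrays. The 3 groups did not overlap, with control lowest and beta-catenin highest. Rps6 rose by 1.03 in beta-catenin cells (SE 0.0647, 2.04-fold, adjusted p = 3.23e-07, limma). It rose by 0.25 in ICAT cells (1.19-fold, adjusted p = 0.00910, limma). Averaged with its only other single-gene probe set, which is very dim, the differences were 0.40 and 0.06, and the ICAT call was lost (adjusted p = 0.547).

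Rpl7l1, a paralogue of Rpl7 known as an assembly factor of the large subunit, fell in both lines. Its log2 values were 11.02, 11.05 and 11.09 in control, 10.51, 10.59 and 10.68 in beta-catenin, and 10.46, 10.45 and 10.57 in ICAT arrays. All arrays of both lines lay below all controls. Rpl7l1 fell by 0.46 in beta-catenin cells (SE 0.0668, 1.38-fold, adjusted p = 2.21e-04) and by 0.56 in ICAT cells (1.47-fold, adjusted p = 7.06e-05, limma). Its 2 other probe sets fell by 0.52 each in beta-catenin cells, and by 0.65 and 0.64 in ICAT cells. Rpl7l1 and its relative Rpl7 were called in opposite directions in beta-catenin cells in the main fit. The call of Rpl7 was lost when its dimmest probe set was used (adjusted p = 0.115, limma).

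Rpl12, which lies at the foot of the P stalk, fell in ICAT cells. Its log2 values were 10.09, 10.10 and 10.20 in control, 9.86, 9.98 and 10.08 in beta-catenin, and 8.98, 9.03 and 9.33 in ICAT arrays. The ICAT arrays lay below all others, and the beta-catenin arrays just below the controls. Rpl12 fell by 1.02 in ICAT cells (SE 0.0949, 2.02-fold, adjusted p = 1.31e-05, limma), and the difference in beta-catenin cells was −0.16 (adjusted p = 0.226).

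Rps25, Rps27 and Rpl14 also fell in ICAT cells. Rps25, a small subunit protein needed for translation from some internal ribosome entry sites, had log2 values of 10.74, 10.80 and 10.78 in control, 10.64, 10.71 and 10.80 in beta-catenin, and 10.38, 10.39 and 10.51 in ICAT arrays. Only the ICAT arrays stood clear of the controls. Rps25 fell by 0.35 in ICAT cells (1.27-fold, adjusted p = 0.00166, limma). Rpl14, of the large subunit, had 9.09, 9.11 and 9.14 in control, 9.13, 9.30 and 9.33 in beta-catenin, and 8.70, 8.74 and 8.96 in ICAT arrays. Rpl14 fell by 0.31 in ICAT cells (1.24-fold, adjusted p = 0.0107, limma), and its beta-catenin arrays overlapped the controls.

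Rps27 is a small subunit protein with a zinc finger, and its paralogue Rps27l is known as a p53 target. Rps27 had log2 values of 8.78, 8.92 and 9.07 in control, 8.72, 8.70 and 8.77 in beta-catenin, and 8.49, 8.59 and 8.63 in ICAT arrays. Both lines lay below the controls. Rps27 fell by 0.35 in ICAT cells (adjusted p = 0.00438, limma), and the difference in beta-catenin cells was −0.19 (adjusted p = 0.0868). Rps27l differed by 0.10 with beta-catenin and −0.15 with ICAT (adjusted p = 0.208 and 0.0607, limma), and the other prior called both, as given above. The 2 other probe sets of Rps27l fell by 0.21 and 0.22 in ICAT cells (adjusted p = 0.0308 and 0.0407, limma over all probe sets).

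**Figure D2:**
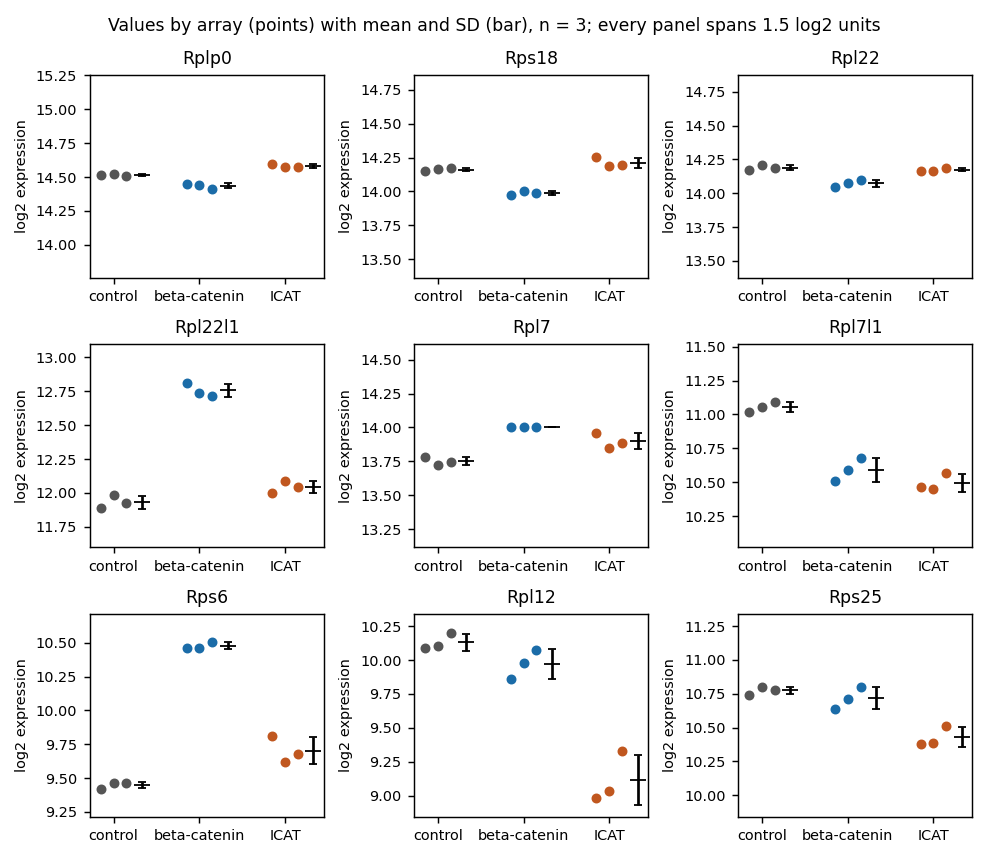
Log2 expression of 9 ribosomal protein genes on each of the 9 arrays (points), with the group mean and SD beside them (bar, n = 3 per group) and every panel spanning 1.5 log2 units. The values of Rplp0, Rps18 and Rpl22 lay in narrow bands on this scale, with the beta-catenin arrays lowest in each. Rpl22l1 and Rps6 were highest in beta-catenin cells, Rpl7l1 was lower in both lines, and Rpl12 and Rps25 were lowest in ICAT cells.

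The remaining paralogues were dim. Rpl39l and Rpl3l, which are known from testis and from muscle, had mean log2 levels of 4.32 and 4.43 and were not tested. The single-gene probe set of Rps16 lay at 4.76 and was not tested either. Rpl39 had a mean of 7.03 and differed from control by less than 0.1 in both lines. Rps4l had a mean of 5.14 and differed from control by −0.21 in beta-catenin cells (adjusted p = 0.0747, limma).

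Probe sets of these genes were also compared by brightness. The 105 single-gene probe sets of these genes were fitted with all 45037, of which 22.1% were called with beta-catenin, 23.1% with ICAT and 26.0% between the lines. Of 64 probe sets at log2 13 or more, 3 rose and 5 fell with beta-catenin, and with ICAT 0 rose and 1 fell. Of 18 from 9 to under 13, 3 rose and 4 fell with beta-catenin, and 2 and 7 with ICAT. Of all probe sets in these 2 bands, 21.08% and 45.69% were called with beta-catenin, and 15.38% and 53.9% with ICAT. The ribosomal protein shares were 12.5% and 38.89% with beta-catenin, and 1.562% and 50% with ICAT. Of 23 under 9, 2 rose and 6 fell with beta-catenin, and 1 and 7 with ICAT, 34.78% each, beside 17.66% and 17.44% of all probe sets under 9. Of the 77 several-gene probe sets at log2 13 or more, 4 rose and 2 fell with beta-catenin, and 2 and 4 with ICAT, which is 7.792% each.

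The same was counted within genes. Of 21 genes with several probe sets and a brightest one at log2 13 or more, 15 had a further probe set under 13, 23 such probe sets in all. Of these 23, 3 rose and 7 fell with beta-catenin, and 1 and 7 with ICAT. Of all probe sets from log2 9 to under 13, 45.69% were called with beta-catenin and 53.9% with ICAT. Under 9 the shares were 17.66% and 17.44%, and at 13 or more 21.08% and 15.38%. The 15 genes' brightest probe sets gave 0 calls against control in either line in the same limma fit over all probe sets, with differences from −0.17 to 0.16 with beta-catenin and −0.15 to 0.08 with ICAT. At an unadjusted p under 0.05 there were 4 and 1. Rpl27, Rpl37a, Rps18 and Rps10, called above in beta-catenin cells, are among these 15 genes, and this fit did not call their brightest probe sets. The median difference of the dim probe sets was −0.14 in both lines, and the difference between dim and bright probe sets was not tested. Where on the transcript each probe set lies was not analysed here.

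Besides Rpl22, described above, wide gaps between probe sets were found for Rps10, Rps9, Rps18 and Rps20 of the small subunit and for Rpl41 of the large. A probe set of Rps10 at a mean of 6.93 had log2 values of 7.51, 7.67 and 7.56 in control, 6.86, 6.93 and 7.18 in beta-catenin, and 6.16, 6.29 and 6.25 in ICAT arrays. It fell in both lines, by 0.59 and 1.35 (adjusted p = 3.59e-04 and 9.05e-07, limma over all probe sets), while the 5 brighter Rps10 probe sets differed by −0.04 to −0.07 in ICAT cells. In beta-catenin cells those 5 differed by −0.16 to −0.26, and 2 of them fell. A probe set of Rps9 at 7.80 fell by 1.23 in ICAT cells (adjusted p = 9.69e-06), and its brightest, at 13.78, differed by −0.04. One of Rps18 at 5.63 fell by 0.53 with beta-catenin and 0.83 with ICAT.

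Rps20 went the other way. Its 2 dim probe sets, at 6.77 and 6.93, rose by 0.9985 and 0.88 in beta-catenin cells (adjusted p = 1.54e-05 and 4.70e-05, limma over all probe sets). They differed by 0.06 and −0.07 in ICAT cells. Its 2 bright ones, at 14.23 and 14.20, differed by −0.05 and −0.03 in beta-catenin cells. For Rpl41 the probe sets at 9.06 and 8.22 fell by 0.32 and 0.54 in beta-catenin cells and by 0.56 and 0.67 in ICAT cells, and that at 14.45 differed by −0.03 and −0.09.

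**Figure D3:**
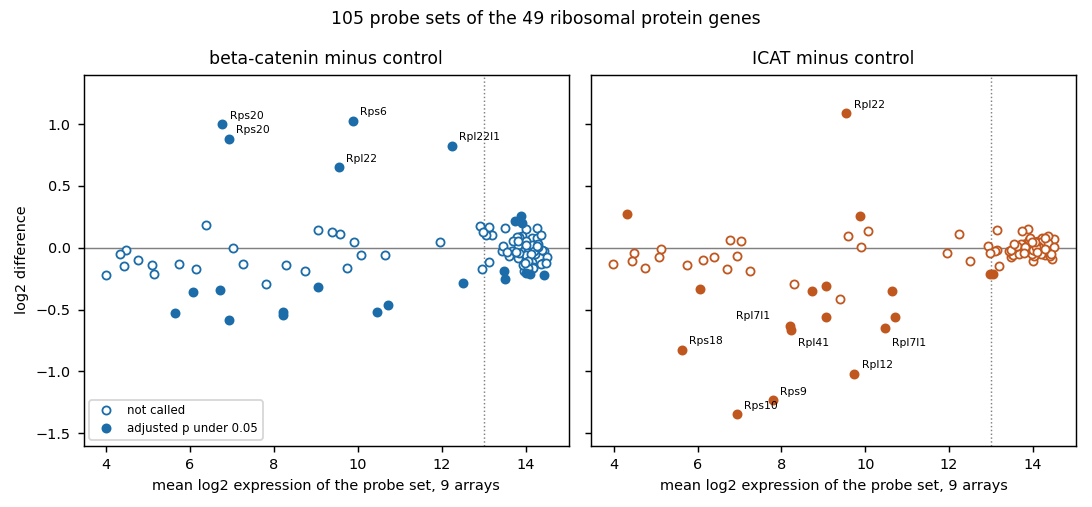
Log2 difference from control against mean log2 expression for the 105 single-gene probe sets of the 49 genes, in beta-catenin cells (left) and ICAT cells (right). Filled points passed an adjusted p under 0.05 over all probe sets, the dotted line marks log2 13, and labelled points differ by more than 0.6. To the right of that line the points lie between −0.26 and 0.25, and to its left they reach −1.35 and 1.09.

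The 2 lines were also set against each other. Of the 46 genes 9 were higher and 4 lower in beta-catenin than in ICAT cells (28.26%), whereas 40.4% of all tested genes were called (22.5% higher, 17.9% lower). The arrays of the lines did not overlap for 35 of the 46 (76.1%), against 47.6% of all. The 9 higher genes were Rpl12, Rps6, Rpl22l1, Rpl14, Rps25, Rps27l, Rpl19, Rpl27 and Rpl8, from 0.86 down to 0.17. Of these, 5 had probe sets under log2 13, namely the first 5 named. The 4 lower genes were Rps18, Rps28, Rps7 and Rplp0, from −0.22 to −0.15.

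Of the 35 bright genes 4 were higher and 4 lower in this comparison (22.86%), beside 44.34% of the 106 other genes at log2 13 or more. Those higher were Rps27l and the large subunit genes Rpl19, Rpl27 and Rpl8, and those lower were Rplp0 and the small subunit genes Rps18, Rps28 and Rps7. Rpl19, which lines the exit tunnel, had log2 values of 13.97, 13.98 and 14.01 in control, 14.11, 14.15 and 14.15 in beta-catenin, and 13.93, 13.91 and 13.91 in ICAT arrays. Controls lay between the lines. Rpl19 was 1.16-fold higher in beta-catenin than in ICAT cells (adjusted p = 0.00717, limma). Rps28, a small subunit protein, had 14.39, 14.40 and 14.40 in control, 14.28, 14.26 and 14.27 in beta-catenin, and 14.44, 14.43 and 14.43 in ICAT arrays, a difference of −0.17 between the lines (adjusted p = 0.0286, limma). The call of Rps28 was lost in several of the limma fits that left out 1 array, and those of Rps7 and Rplp0 in most. Their adjusted p went up to 0.0895, 0.108 and 0.133.

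Genes that build the ribosome were mostly lower in ICAT cells. Of 34 genes of ribosome assembly and biogenesis, 0 rose and 31 fell in ICAT cells, with a median log2 difference of −0.65. In beta-catenin cells 3 rose and 10 fell, with a median of −0.04. The shares called were 38.24% with beta-catenin and 91.18% with ICAT, beside 34.9% and 37.2% of all tested genes. The beta-catenin share was thus near that of all genes. Polr1b, a subunit of RNA polymerase I, fell 2.56-fold in ICAT cells (adjusted p = 1.74e-07), and Nolc1, a nucleolar phosphoprotein, fell 2.24-fold (adjusted p = 4.07e-06, limma). Tsr2, the chaperone that delivers Rps26, was 2.04-fold higher with beta-catenin (adjusted p = 1.32e-06, limma). Of 76 mitochondrial ribosomal proteins, which make a separate ribosome, 4 rose and 47 fell in ICAT cells, with a median of −0.29. In beta-catenin cells 18 rose and 10 fell. For this list the shares were 36.84% with beta-catenin, also near that of all genes, and 67.11% with ICAT. The difference between these lists and the cytosolic ribosomal proteins was not tested.

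Other mRNAs known to carry the TOP tract were counted too. Of 16 such genes, 1 rose (Eif3f) and 1 fell (Eif2s3x) with beta-catenin, both initiation factor subunits. With ICAT 1 rose and 5 fell. The shares were 12.5% and 37.5%, beside 34.9% and 37.2% of all tested genes. Eef1a1, the main elongation factor, differed from control by 0.02 and 0.06 (adjusted p = 0.827 and 0.451, limma). Eef2, the translocation factor, rose by 0.25 in ICAT cells (adjusted p = 0.00666), and Eef1d fell by 0.34 (adjusted p = 0.00244, limma). Fau, which encodes a small subunit protein under another name, fell by 0.16 with beta-catenin and 0.18 with ICAT (adjusted p = 0.0450 and 0.0258, limma).

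Of 19 initiation factors, 1 rose and 6 fell with beta-catenin, and with ICAT 0 rose and 9 fell. The shares were 36.84% and 47.37%, beside the same 34.9% and 37.2%, so the beta-catenin share was near that of all genes. With beta-catenin, Eif1ax rose 1.73-fold and Eif5 fell 1.64-fold (adjusted p = 3.49e-06 and 9.22e-05, limma). Eif6, which keeps the subunits apart until the large one is mature, fell 1.45-fold in ICAT cells (adjusted p = 1.30e-04, limma). Of 12 mTOR and MYC regulators of translation, 6 rose and 0 fell with beta-catenin, and with ICAT 3 rose and 4 fell (50% and 58.33%). Myc was 1.36-fold higher with beta-catenin (adjusted p = 1.78e-04, limma), and Mxd4, which opposes MYC, rose 2.02-fold (adjusted p = 1.14e-06, limma). Larp1, the TOP-binding protein, rose by 0.24 with beta-catenin and fell by 0.34 with ICAT (adjusted p = 0.0142 and 0.00181, limma).

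**Figure D4:**
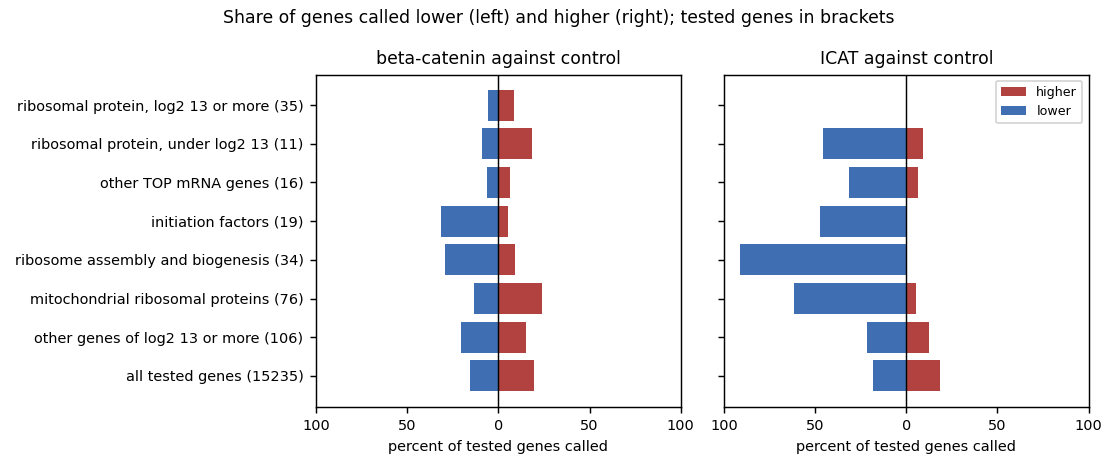
Percent of tested genes called lower (bars to the left) and higher (bars to the right) at an adjusted p under 0.05, in beta-catenin cells (left panel) and ICAT cells (right panel), with the number of tested genes in brackets. In ICAT cells 31 of 34 assembly genes and 47 of 76 mitochondrial ribosomal protein genes are lower. None of the 35 ribosomal protein genes at log2 13 or more is called there with the common prior shown. With the prior that follows the level 9 of these 35 are called.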

How the data were processed

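Total RNA was labelled from the 3′ end for Affymetrix arrays, as the labels' protocols say. The authors deposited log2 expression per probe set. The submitters' processing notes name RMA and affy, and their versions were not given in the sources used here. RMA normalization gives all arrays 1 distribution, so a shift of all genes together would not be seen. The number of arrays, 3 per group, limits the precision.

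Gene names came from the platform annotation, updated through Entrez identifiers, and the brightest single-gene probe set by mean over 9 arrays was used. A linear model of 3 group means over 15235 genes was fitted in R 4.3.3 with limma 3.58.1, with 6 residual degrees of freedom and a prior worth 5.03, and tested two-sided, Benjamini-Hochberg within each comparison. Folds are 2 to the power of the size of the log2 difference. All probe sets were fitted in a second model. No exact permutation test was used, since 0.1 is the smallest p that 3 against 3 arrays allow.

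Named genes were, per comparison, the 6 largest increases and 6 largest decreases among called members whose groups did not overlap, the paralogues and their relatives, P stalk, 5S particle and Rpsa genes, the brightest and dimmest 3, and up to 4 called genes of each related list. Members with several probe sets that disagree were chosen after their values were seen. The members, lists and tests were chosen with earlier results of these data known. Scripts were tested on simulated data. Alternatives were filters, choice of probe set, prior, array weights, scaling, a replicate block and leaving out each array.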

Additional observations from a re-analysis of the deposited data

Results flagged for a closer look

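For 13 ribosomal protein genes the effect differed between the 2 lines, by the limma test of beta-catenin against ICAT cells over all tested genes (adjusted p under 0.05). These are 28.26% of the 46 tested, below the 40.4% of all tested genes called in that comparison. The log2 difference, beta-catenin minus ICAT, was 0.86 for Rpl12, 0.77 for Rps6, 0.71 for Rpl22l1, 0.45 for Rpl14 and 0.29 for Rps25. It was 0.25 for Rps27l, 0.22 for Rpl19, 0.21 for Rpl27 and 0.17 for Rpl8. It was −0.15 for Rplp0, −0.16 for Rps7, −0.17 for Rps28 and −0.22 for Rps18. For the first 5 genes and for Rps27l, Rpl27 and Rps18 the call held with each array left out in turn. For Rplp0 and Rps7 it was lost in most of these fits, and for Rps28 in some. Rpl19 and Rpl8 were not followed singly. In several of these fits the count of 9 higher genes fell to 8, so Rpl19 or Rpl8 lost its call there.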

How the results depend on the processing

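Counts of genes called are given as higher and lower. The report's counts were 5 and 3 (beta-catenin against control), 1 and 5 (ICAT against control) and 9 and 4 (beta-catenin against ICAT). Those that moved by over 1.5 times were, in the same order: with no filter 3 higher, then 2 higher; with a filter at log2 7 5 lower, then 2 higher; with the mean of a gene's probe sets 6 lower, then 10 lower; with the dimmest probe set 8 lower, then 2 higher and 11 lower, then 1 lower; with no _a, _s or _x probe sets 2 higher and 5 lower, then 10 lower, then 0 lower. With a prior that follows the level they were 10 and 11, then 5 and 10, then 10 lower; with a robust prior as well 10 and 11, then 5 and 8, then 9 lower. Array weights gave 10 and 12, and a fit of the 2 groups alone 6 lower, and 1 lower in the third. Centring on the median gave 3 and 12, and repeated quantile normalization 5 lower, then 2 higher. Without 1 array the ranges were 3 to 6 and 1 to 4, then 1 to 1 and 5 to 5, then 8 to 9 and 1 to 6. In 2 subsets chosen after seeing the data, genes at log2 13 or more gave 3 and 2, then 0 and 0, then 4 and 4, and genes under 13 gave 2 and 1, then 1 and 5, then 5 and 0. Median log2 differences moved to −0.0791, −0.0739 and 0.123 without the suffixed probe sets, and to −0.0705 and −0.0821 against control with centring. With a replicate block the counts were 3 and 2, then 1 and 5, then 9 and 2. The main fit had no block, since no label says that a replicate number marks a shared day or culture. Deviations of same-numbered arrays correlated at 0.109, −0.0015 and 0.121 between beta-catenin and control. They correlated at 0.0378, 0.0553 and 0.175 between ICAT and control, and at 0.155, −0.129 and 0.410 between the lines. For differently numbered arrays the correlations ran from −0.416 to 0.333. Whether the numbers pair the cultures was not tested. Reversed signs came from another probe set: Rpl22 in beta-catenin cells (0.65, dimmest) and ICAT cells (0.33, mean; 1.09, dimmest), Rps18 in ICAT cells (−0.16, mean; −0.83, dimmest), and, between the lines, Rps18 (0.30, dimmest; 0.0581, no suffix) and Rps10 (0.76 for both). Of 25 called values of named genes, 14 kept their call under every alternative run. The causes were not tested.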
